A study of Mus musculus with 4 samples.

Results

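The 9 genes described here encode transcription factors that are used to define microglia, the resident macrophages of the brain: Sall1, Mef2a, Mef2c, Maf, Spi1, Irf8, Runx1, Klf2 and Cebpa. They were chosen by symbol, and all 9 were among the 12800 genes of the deposited single-cell count table. Their transcripts were counted in 3023 brain cells of male mice aged 12 to 14 months that had eaten a control diet or 0.2% cuprizone for 12 weeks. Cuprizone is a copper chelator whose toxicity to oligodendrocytes causes loss of myelin. There were 4 groups of 1 library each: Trem2 -/- mice on cuprizone (KO cuprizone), Trem2 +/- mice on cuprizone (Het cuprizone), Trem2 +/+ mice on cuprizone (WT cuprizone) and Trem2 +/+ mice on control diet (WT control). Live CD11b+ CD45low cells were sorted, 30000 from each hemibrain, and cells from 2 hemibrains were pooled for a library, so animals cannot be separated within a group. Trem2 encodes a lipid-sensing receptor of microglia; the labels do not name the knockout allele.

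Microglia arise from yolk sac progenitors, and the factors that make them operate in layers. Spi1 (PU.1) with its partner Irf8, together with Runx1 and Cebpa, opens the enhancers shared by myeloid cells. Sall1, factors of the MEF2 family and Maf act on top of this layer in response to signals of the brain, and Sall1 in particular separates microglia from other macrophages. Klf2 is a zinc finger factor that restrains inflammatory activation of myeloid cells and responds quickly to stimulation.

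Levels are given as unique molecular identifiers (UMIs) of a gene per 1000000 UMIs of the summed cells (CPM), over 6 of the authors' 8 clusters (01, 02, 04, 05, 06 and 08), which are called the microglia clusters below. These held 753, 695, 663 and 479 cells and 6514310, 6552603, 6175520 and 3638474 UMIs in the KO cuprizone, Het cuprizone, WT cuprizone and WT control libraries. All 11 microglia markers, among them P2ry12 and Tmem119, were present in each of the 6 clusters. Cluster 03 (66 cells) carried neutrophil, choroid plexus and oligodendrocyte markers and was used only as a comparison. Trem2 itself had 520.1 CPM in KO cuprizone, 1763 in Het cuprizone, 2939 in WT cuprizone and 3132 in WT control. The libraries read the 3′ ends of transcripts, and whether these lie outside the deleted part of Trem2 is not known, so this checks the labels only in part. Among 3023 cells, 8 barcodes occurred in more than 1 library. With 1 library per group no test between groups was possible, and every bracketed range is a 95% interval for counting error only.

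The promoters of 7 of the 9 genes were in the RefSeq table used here (GRCm38.p6), as 13 windows of 300 bases from 250 before to 50 after a transcription start. The table held none for Spi1 and Maf. A motif of the MEF2 factors, the family of Mef2a and Mef2c, was found on either strand in the windows of Klf2 and Mef2a, against 3.19% of 32851 windows of all genes. These 2 windows are shown because they carry a motif of a family that is itself among the 9 genes; the match is in capitals, and each runs 5′ to 3′ on the strand of its gene, at chr8:72318812-72319111 (plus strand) for Klf2 and chr7:67372809-67373108 (minus strand) for Mef2a.
Klf2: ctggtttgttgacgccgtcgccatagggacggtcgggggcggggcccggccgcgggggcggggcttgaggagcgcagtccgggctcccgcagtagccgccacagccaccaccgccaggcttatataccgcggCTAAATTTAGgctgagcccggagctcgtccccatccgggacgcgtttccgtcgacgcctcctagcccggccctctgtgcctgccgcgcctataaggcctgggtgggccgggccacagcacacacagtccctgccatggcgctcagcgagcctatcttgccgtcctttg
Mef2a: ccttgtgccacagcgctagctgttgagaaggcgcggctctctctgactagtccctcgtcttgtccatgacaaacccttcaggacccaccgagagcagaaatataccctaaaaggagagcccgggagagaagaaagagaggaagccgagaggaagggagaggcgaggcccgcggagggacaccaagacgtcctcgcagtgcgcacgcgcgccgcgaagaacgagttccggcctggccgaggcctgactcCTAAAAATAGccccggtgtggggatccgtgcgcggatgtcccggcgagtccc
The match begins 118 bases before the start in Klf2 and 2 bases before it in Mef2a. The matches of different motifs lay in different genes, so none overlapped another. Of the other motifs searched on both strands, TGANTCA of the AP-1 factors occurred in Mef2c (7.81% of windows) and TGTGGT of the RUNX factors occurred in Runx1 itself, with 2 matches in 1 window (16.8% of windows). GAGGAAGT of PU.1 (3.20% of windows) and TTGCNNAA of the C/EBP factors (10.8%) occurred in none of the 13 windows. A match describes the letters of a window and says nothing of binding.

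Between the microglia clusters and cluster 07, 1 of the 9 factors, Maf, differed by at least 1.5-fold, as did 7% of 10352 genes tested. The other 8 differed by less. Cluster 07 held 114, 87, 81 and 85 cells in KO cuprizone, Het cuprizone, WT cuprizone and WT control. All 10 markers of border-associated macrophages, the macrophages of meninges and perivascular spaces, were present, at a summed 2976 CPM against 53.0 to 395.4 CPM in the single microglia clusters, and the 4 MHC class II genes reached 14186 CPM. Dendritic cell markers, of which 3 of 5 were in the files, summed to 217.3 CPM there, against 4.34 to 20.0 CPM in the single microglia clusters. The 11 microglia markers were also high there, at 18873 CPM, so cluster 07 is referred to by its number. Clusters were made by the authors from these cells, with Sall1, Maf and Mef2c among the 4895 genes used for the clustering and the other 6 factors not, so differences between clusters are descriptions.

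Maf (chr8:115682942-115707794, minus strand, GRCm38), a large basic leucine zipper factor of tissue macrophages, was the factor that set the microglia clusters apart from cluster 07 by the most. Its level was 203.1, 207.7, 211.3 and 320.2 CPM in the microglia clusters of KO cuprizone, Het cuprizone, WT cuprizone and WT control, against 302.5, 358.2, 342.6 and 452.9 CPM in cluster 07 of the same libraries. Cluster 07 was higher in every library. Over the 4 libraries together Maf was 1.62-fold lower in the microglia clusters (1.52 to 1.72), and it was lower in 4 of 4 libraries, a pattern found in 9.03% of genes tested. It was the only 1 of the 9 factors past the size limit used throughout, a ratio of at least 1.5 in either direction whose interval leaves out 1, on at least 50 UMIs; 4.57% of 10352 genes tested were lower by that rule, 2.43% higher and 7% either.

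Klf2 (chr8:72319033-72321656, plus strand) had 1109, 1193, 1077 and 1852 CPM in the microglia clusters of KO cuprizone, Het cuprizone, WT cuprizone and WT control, against 1899, 1475, 1747 and 1678 CPM in cluster 07. It was 1.39-fold lower in the microglia clusters over all libraries (1.35 to 1.42). The direction was not uniform: cluster 07 was the higher in the 3 cuprizone libraries, and in WT control the microglia clusters were 1.10-fold higher (1.05 to 1.16).

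Sall1 (chr8:89027235-89044162, minus strand), the zinc finger repressor that keeps microglia from taking on other macrophage programmes, had 130.3, 126.1, 125.3 and 156.9 CPM in the microglia clusters of KO cuprizone, Het cuprizone, WT cuprizone and WT control. In cluster 07 it had 105.7, 84.9, 83.7 and 161.7 CPM. The microglia clusters were higher in the 3 cuprizone libraries and level with cluster 07 in WT control, and the ratio over all libraries was 1.16 (1.05 to 1.28). Cluster 07 differed in make-up between the libraries: of its cells, 15 of 81 in WT cuprizone and 33 of 85 in WT control were in the quartile with the most microglia markers described next, and 30 and 13 were in the quartile with the fewest. The part of this in the Sall1 ratios was not tested.

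The factors of the shared myeloid layer differed little between the microglia clusters and cluster 07. Cebpa (chr7:35119293-35121928, plus strand), a C/EBP factor needed for the myeloid lineage, was 1.26-fold higher in the microglia clusters (1.17 to 1.35). Irf8 (chr8:120736358-120756694, plus strand), the interferon regulatory factor that pairs with PU.1, was 1.19-fold higher (1.14 to 1.25). Spi1 (chr2:91082390-91115756, plus strand), which encodes PU.1, was 1.07-fold higher (1.02 to 1.13). Each of these 3 was higher in 4 of 4 libraries, as were 17.2% of genes tested. Runx1 (chr16:92601466-92826149, minus strand), the core-binding factor of blood cell emergence, had a ratio of 0.873 (0.776 to 0.984). Of the MEF2 pair, Mef2a (chr7:67231163-67372858, minus strand) was 1.11-fold higher (1.04 to 1.19), while the interval of Mef2c (chr13:83504034-83667080, plus strand) held 1 (ratio 1.04, 0.994 to 1.09).

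Cluster 07 was not uniform for the factors. Its 367 cells were ranked by their summed level of the 11 microglia markers and cut into quartile groups, a split chosen after seeing the data, in which none of the 9 factors was used. The lowest quartile held 92 cells, 21 from KO cuprizone, 28 from Het cuprizone, 30 from WT cuprizone and 13 from WT control. Across the quartiles, from the lowest to the highest, microglia markers summed to 5530, 15046, 20063 and 24976 CPM. Over the same quartiles, border-associated markers summed to 7993, 3835, 2060 and 1513 CPM, and the MHC class II genes to 30794, 14514, 12876 and 9465 CPM. Depth moved with the split, since the median was 3947 UMIs per cell in the lowest quartile and 12459 in the highest; its part in the values below was not tested. The cut lay at 8424 CPM, and 26 of the 367 cells were within 10% of it.

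Sall1, Cebpa and Mef2a were lowest in the cells of cluster 07 with the fewest microglia markers. Sall1 had 132.0 CPM in the microglia clusters (3020 UMIs), against 20.9 CPM in the lowest quartile of cluster 07 (9 UMIs), a ratio of 6.31 (3.32 to 13.8). Across the quartiles it had 20.9, 72.4, 126.5 and 163.0 CPM. The lowest quartile thus stood at the level of cluster 03, 22.6 CPM (ratio 0.927, 0.339 to 2.46). The 9 UMIs were 1 in KO cuprizone, 4 in Het cuprizone, 1 in WT cuprizone and 3 in WT control; in the WT control library alone the interval of the ratio held 1 (2.56, 0.873 to 12.5). Cebpa had 315.9 CPM in the microglia clusters and 86.0 CPM in the lowest quartile, a ratio of 3.67 (2.66 to 5.22). Mef2a had 276.4 CPM in the microglia clusters and 113.9 CPM in the lowest quartile, a ratio of 2.43 (1.83 to 3.29). Both were higher in the microglia clusters in each of the 4 libraries, with intervals above 1.

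Irf8 was the 1 other factor past the limit in that direction, with 662.4 CPM in the microglia clusters and 415.9 CPM in the lowest quartile (ratio 1.59, 1.37 to 1.86); in WT control alone its interval held 1 (1.18, 0.819 to 1.76). Mef2c (1.47, 1.26 to 1.72) and Spi1 (1.28, 1.10 to 1.49) lay in the same direction below the limit. Runx1 was at 78.8 CPM in the microglia clusters and 79.0 CPM in the lowest quartile, a ratio of 0.997 (0.711 to 1.44). Maf and Klf2 went the other way. Maf had 225.3 CPM in the microglia clusters and 457.7 CPM in the lowest quartile, 2.03-fold lower in the microglia clusters (1.75 to 2.34). Klf2 had 1242 CPM in the microglia clusters and 2068 CPM in the lowest quartile, 1.66-fold lower in the microglia clusters (1.56 to 1.78). Against the lowest quartile, 4 of the 9 factors were thus higher and 2 lower in the microglia clusters, where 12.3% of 10166 genes were higher and 6.67% lower (19% in either direction). The median log2 ratio of the 9 was 0.56, and that of all genes 0.29. Among single libraries Klf2 was past the limit only in KO cuprizone, where the microglia clusters were 3.31-fold lower. That library gave 343 of the 890 Klf2 UMIs of the lowest quartile, from 21 cells. The microglia clusters were 1.47-fold lower in Het cuprizone and 1.36-fold lower in WT cuprizone, while WT control had a ratio of 1.07 (0.862 to 1.34).

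**Figure D1:**
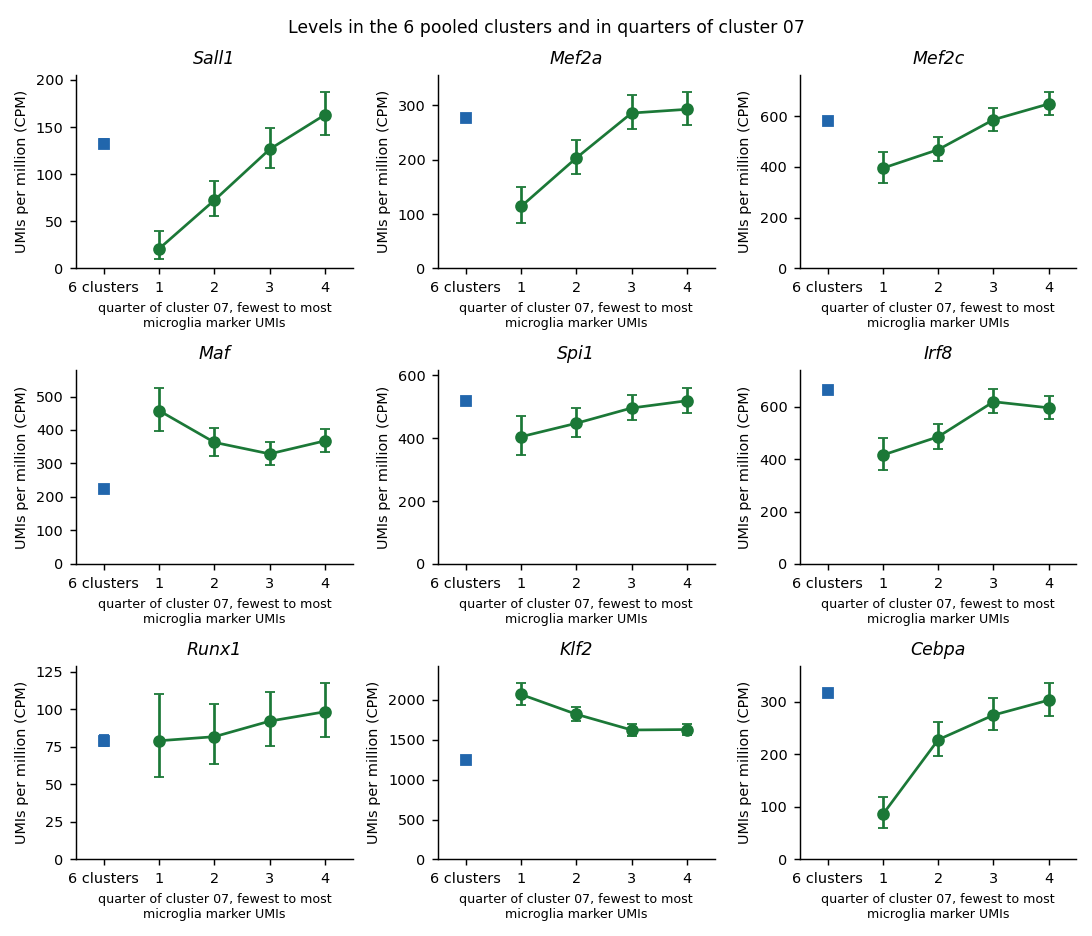
Level of each factor in CPM (vertical axis from 0) in the 6 microglia clusters (square) and in the 4 quartiles of cluster 07 ordered from the fewest to the most microglia marker UMIs (circles), with 4 libraries summed and bars for 95% Poisson intervals. Sall1, Mef2a and Cebpa climb from the first quartile to the fourth, Runx1 intervals overlap throughout, and Maf and Klf2 are highest in the first quartile.

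Among the microglia clusters themselves Klf2 varied by the largest fold of the 9 factors. It had 2498 CPM in cluster 01, 1893 in cluster 05, 1245 in cluster 02, 878.6 in cluster 08, 662.2 in cluster 04 and 471.2 in cluster 06. Clusters 01 and 06 lay at opposite ends although both were shallow, with medians of 3387 and 3541 UMIs per cell. The summed level of 21 immediate early genes, which brain dissociation can switch on, was 36243, 24007, 21765, 15060, 13537 and 6921 CPM in clusters 01, 05, 02, 08, 04 and 06. The order of the clusters was thus the same for Klf2 and for this sum; what sets that order was not tested. Within each cuprizone library Klf2 kept this order, and in WT control clusters 08 and 02 changed places.

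Cluster 04, which came mainly from Het cuprizone (150 cells) and WT cuprizone (122 cells) and held 13 cells of KO cuprizone and 6 of WT control, was set against the other 5. Since libraries took unequal shares of the clusters, clusters were ranked within each library. Cluster 04 was the lowest of the 6 for 6 of the 9 factors in KO cuprizone (38.9% of all genes with at least 50 UMIs), for 5 in Het cuprizone (27.2%), for 6 in WT cuprizone (26.5%) and for 3 in WT control (32.3%). The 5 in Het cuprizone were Sall1, Mef2a, Mef2c, Spi1 and Irf8, and the 6 in WT cuprizone were Mef2a, Mef2c, Maf, Spi1, Irf8 and Runx1. P2ry12, a purine receptor of resting microglia, was also lowest there in 4 of 4 libraries.

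Irf8 was highest in cluster 01 and nominally lowest in cluster 04 in 4 of 4 libraries. In WT cuprizone it had 895.9 CPM in cluster 01, 638.9 CPM in cluster 02 and 619.8 CPM in cluster 04. Clusters 02 and 04 were also nearly level in Het cuprizone, and cluster 04 of WT control held 31 Irf8 UMIs. With the libraries summed, Irf8 was lowest in cluster 08, at a log2 ratio of -0.20 to the microglia clusters together, against -0.11 in cluster 04. Mef2c had 405.2 CPM in cluster 04 and 624.6 CPM in cluster 05 of that library. Sall1 was highest in cluster 02 in 4 of 4 libraries, at 174.8 CPM in WT cuprizone, where it had 71.1 CPM in cluster 04 (57.8 to 86.5) and 57.1 CPM in cluster 08 (37.3 to 83.7). The last 2 did not differ beyond counting error. Maf was highest in cluster 02 as well, in 4 of 4 libraries, with 269.6 CPM there and 132.9 CPM in cluster 04 of WT cuprizone. Among the 6 microglia clusters, cells were deepest in cluster 02 (median 16984.5 UMIs) and shallowest in cluster 01 (median 3387 UMIs). The part of depth in the ranks of Irf8, Sall1 and Maf was not tested. How many of all genes are highest in cluster 01 or 02 in 4 of 4 libraries was not tested either. Cebpa had its lowest level in cluster 06 in WT cuprizone, 229.3 CPM, and its highest in cluster 01, 637.4 CPM. Spi1 in the same library had 420.1 CPM in cluster 04 and 687.4 CPM in cluster 01.

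**Figure D2:**
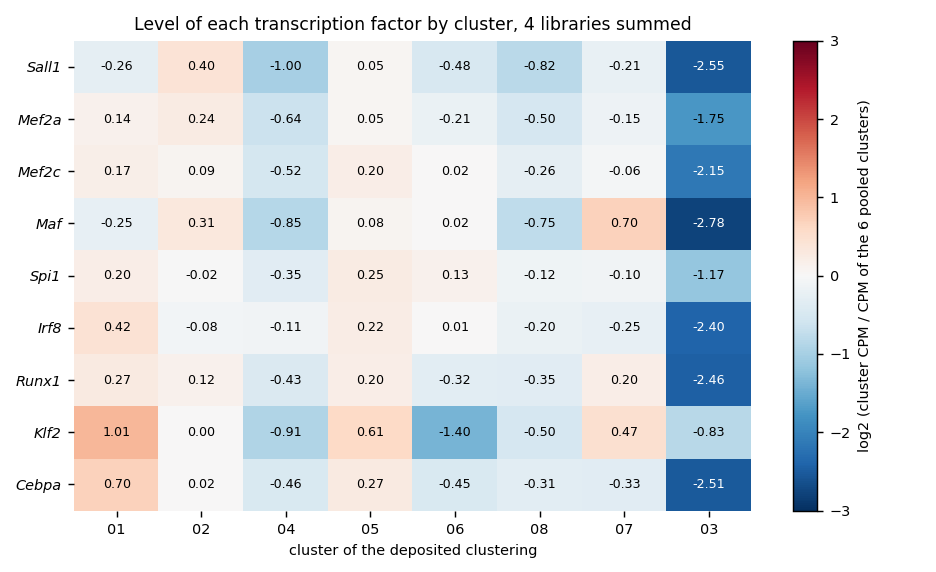
Log2 ratio of each factor's CPM in a cluster to its CPM in the 6 microglia clusters together, 4 libraries summed, with clusters of the deposited clustering in columns (colour scale from -3 to 3). Klf2 runs from 1.01 in cluster 01 to -1.40 in cluster 06, cluster 04 is below 0 for all 9 factors, and cluster 03 is lowest for all 9 except Klf2. How common these features of clusters 04 and 03 are among all genes was not tested, so they do not set the factors apart.

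On cuprizone, Klf2 and Maf were lower in wild-type microglia than on control diet, and the other 7 factors moved less. Klf2 had 1077 CPM in WT cuprizone and 1852 CPM in WT control, 1.72-fold lower (1.66 to 1.78). Maf had 211.3 CPM in WT cuprizone and 320.2 CPM in WT control, 1.52-fold lower (1.40 to 1.64). These 2 of the 9 were past the limit, where 4.44% of 8819 genes tested were lower; none of the 9 was past it in the higher direction (2.59% of genes; 7.03% in either direction). Without cluster 08 the ratio of Maf fell just inside the limit, at -0.57 on the log2 scale.

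The remaining factors were Sall1 at 125.3 CPM in WT cuprizone and 156.9 CPM in WT control, 1.25-fold lower (1.12 to 1.40), and 6 with smaller ratios. Mef2c had 538.3 CPM in WT cuprizone and 634.6 CPM in WT control, 1.18-fold lower (1.12 to 1.24). Mef2a had 266.7 CPM in WT cuprizone and 308.4 CPM in WT control, 1.16-fold lower (1.07 to 1.25). Cebpa had 319.5 CPM in WT cuprizone and 355.6 CPM in WT control, 1.11-fold lower (1.04 to 1.19). These 3 stayed well within the limit. Spi1 had 515.4 CPM in WT cuprizone and 539.5 CPM in WT control, Irf8 668.6 and 698.1 CPM, and Runx1 82.6 and 94.3 CPM in the same order, and the interval of the ratio held 1 for these 3. All 9 ratios were below 1, as were 66.7% of all genes tested. The median log2 ratio was -0.21 for the 9 factors and -0.11 for all genes. With TMM scaling, which moves the median of all genes to 0.01, 7 of the 9 ratios were below 1, Spi1 and Irf8 were at log2 ratios of 0.05 and 0.06, and only Klf2 was past the limit. That scaling also turned the split of all calls from 228 higher and 392 lower to 336 higher and 196 lower.

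The 2 libraries differed in their clusters, since cluster 04 had 122 cells in WT cuprizone and 6 in WT control, and cluster 08 had 76 and 13. Klf2 was lower in WT cuprizone within 6 of 6 microglia clusters, with all 6 intervals below 1 and folds between 1.29 (cluster 01) and 2.71 (cluster 08). In cluster 06 it had 321.1 CPM in WT cuprizone and 825.8 CPM in WT control, and in cluster 05 it had 1342 and 2356 CPM. Maf was lower within 6 of 6 clusters, between 1.25-fold and 1.68-fold, with 4 of the intervals below 1. A lower value within all 6 clusters was found for 3.06% of genes. Sall1 was lower in 5 of the 6 clusters, with 1 interval below 1, that of cluster 06 at 79.2 CPM in WT cuprizone and 126.7 CPM in WT control. Mef2a, Mef2c and Runx1 were lower in 5 of the 6 clusters as well, each with 1 interval below 1, and Cebpa was lower in 4 and higher in 2, with 1 interval above 1. Spi1 and Irf8 went against their pooled ratios and were higher in WT cuprizone within 5 of the 6 clusters; 1 interval lay above 1, that of Spi1 in cluster 01 (1.21, 1.002 to 1.46). With equal weight for each cluster 7 of the 9 ratios were below 1.

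The immediate early genes, read here because Klf2 ranked clusters as they did, differed less between the diets than Klf2. Their summed level was 0.887 of WT control in WT cuprizone (0.879 to 0.895) over the microglia clusters, and within the 6 clusters the ratio lay between 0.857 and 1.12, where that of Klf2 lay between 0.368 and 0.774. Klf4, a relative of Klf2 in that list, was 1.90-fold lower in WT cuprizone (1.68 to 2.15). In cluster 07 as a whole Klf2 was not lower on cuprizone (ratio 1.04, 0.965 to 1.12), while Maf (0.756, 0.642 to 0.888) and Sall1 were. Sall1 had 83.7 CPM in WT cuprizone and 161.7 CPM in WT control there. The cells of cluster 07 lay in different parts of the cluster, as given above. Within the quartiles, from the fewest to the most microglia markers, the ratio of Maf was 0.815, 0.700, 0.775 and 0.703, with the interval of the last below 1. Sall1 was not uniform, at 0.112, 0.768, 1.14 and 0.423 on 1, 10, 30 and 13 UMIs in WT cuprizone, and the last was the only interval below 1 (0.219 to 0.751). Klf2 went both ways over the same quartiles, at 0.843, 1.34, 0.769 and 1.30. The intervals of 1.34 (1.14 to 1.58) and 1.30 (1.13 to 1.49) lay above 1, and that of 0.769 (0.669 to 0.883) lay below 1. The ratio of Klf2 in cluster 07 as a whole thus joined unlike values. How cluster 07 differs from the microglia clusters in these diet ratios was not tested.

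**Figure D3:**
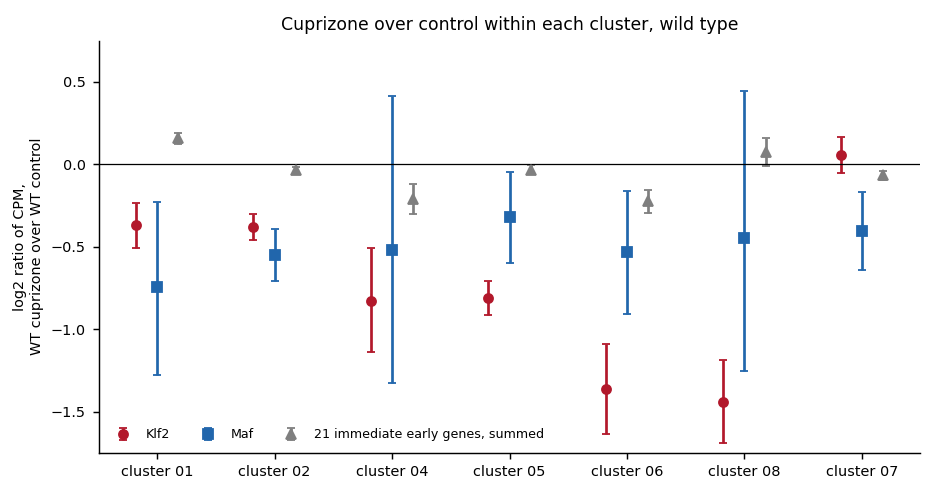
Log2 ratio of CPM in WT cuprizone over WT control within each deposited cluster for Klf2 (circles), Maf (squares) and the summed 21 immediate early genes (triangles), with bars for 95% counting intervals. Klf2 lies below 0 in the 6 microglia clusters and near 0 in cluster 07 as a whole, Maf lies below 0 in all 7, and the sum stays close to 0.

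In mice without Trem2, 0 of 9 factors were past the limit in KO cuprizone over WT cuprizone. Of 9189 genes tested, 5.51% were past it in either direction (3.86% lower and 1.64% higher), so 0 of 9 does not set the factors apart. Of the 9 ratios 5 were above 1 and 4 below, and with equal weight for each cluster 3 and 6. The clusters were unequally shared, as cluster 04 had 13 cells in KO cuprizone and 122 in WT cuprizone. The 3 comparisons described for the libraries share WT cuprizone, so their ratios are not independent. Mef2c had 607.7 CPM in KO cuprizone and 538.3 CPM in WT cuprizone, a ratio of 1.13 (1.08 to 1.18). Irf8 had 616.0 CPM in KO cuprizone and 668.6 CPM in WT cuprizone, a ratio of 0.921 (0.882 to 0.963). These were the 2 factors whose interval excluded 1. Irf8 was lower in KO cuprizone within 6 of 6 clusters, as were 3.84% of genes, and 2 of the 6 intervals lay below 1: cluster 08, with 525.7 CPM in KO cuprizone and 652.3 CPM in WT cuprizone, and cluster 04, with 364.5 and 619.8 CPM on 13 KO cuprizone cells. Mef2c was higher in 5 of the 6 clusters and lower in cluster 04.

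For the other 7 the interval held 1. Sall1 had 130.3 CPM in KO cuprizone and 125.3 CPM in WT cuprizone (ratio 1.04, 0.942 to 1.15), and Mef2a had a ratio of 1.05 (0.978 to 1.12). Spi1 had 531.8 CPM in KO cuprizone and 515.4 CPM in WT cuprizone (1.03, 0.983 to 1.08). Cebpa (0.975, 0.916 to 1.04), Maf (0.961, 0.890 to 1.04) and Runx1 (0.889, 0.783 to 1.01) had ratios just below 1. Within clusters, Cebpa was lower in KO cuprizone in cluster 01, at 426.9 CPM in KO cuprizone and 637.4 CPM in WT cuprizone (0.670, 0.547 to 0.820), and in cluster 04 (0.441, 0.249 to 0.726) on 16 UMIs in KO cuprizone, and the other 4 intervals held 1. Klf2 had a ratio of 1.03 (0.997 to 1.07) over the pooled clusters, and its clusters disagreed in direction: cluster 05 was higher in KO cuprizone (1.28, 1.17 to 1.39) while clusters 01, 02 and 04 were lower with intervals below 1. Maf and Klf2, the factors lower on cuprizone, thus stayed at 203.1 and 1109 CPM in KO cuprizone, next to 211.3 and 1077 CPM in WT cuprizone.

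In Het cuprizone 0 of 9 factors were past the limit, where 2.49% of 9248 genes tested were. Klf2 had 1193 CPM in Het cuprizone and 1077 CPM in WT cuprizone, a ratio of 1.11 (1.07 to 1.15); within clusters the ratio ran from 0.749 to 1.51. Neutrophil markers were also higher there, at a summed 635.2 CPM in KO cuprizone, 1745 CPM in Het cuprizone, 47.1 CPM in WT cuprizone and 0 UMIs in WT control over the microglia clusters. Most of these UMIs were in 3 cells of KO cuprizone and 6 cells of Het cuprizone with over 1% of their UMIs from the 8 markers. Without these cells 91.6 CPM were left in KO cuprizone and 175.4 CPM in Het cuprizone, and the Klf2 ratio in Het cuprizone was 1.12 (1.08 to 1.15). Cebpa had 294.5 CPM in Het cuprizone and 319.5 CPM in WT cuprizone (0.922, 0.865 to 0.982) and was lower within 6 of 6 clusters, as were 2.47% of genes. Runx1 (0.872, 0.768 to 0.990) and Spi1 (0.950, 0.905 to 0.999) were the other ratios whose interval excluded 1 with all cells. Without the cells left out above, the Runx1 interval held 1 (0.882, 0.776 to 1.002). That of Mef2c then excluded it (1.05, 1.002 to 1.10). With all cells, Sall1 (1.01, 0.911 to 1.11), Mef2a (0.995, 0.930 to 1.07), Mef2c (1.05, 0.9997 to 1.10), Maf (0.983, 0.910 to 1.06) and Irf8 (1.02, 0.979 to 1.07) were at the level of WT cuprizone within counting error.

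**Figure D4:**
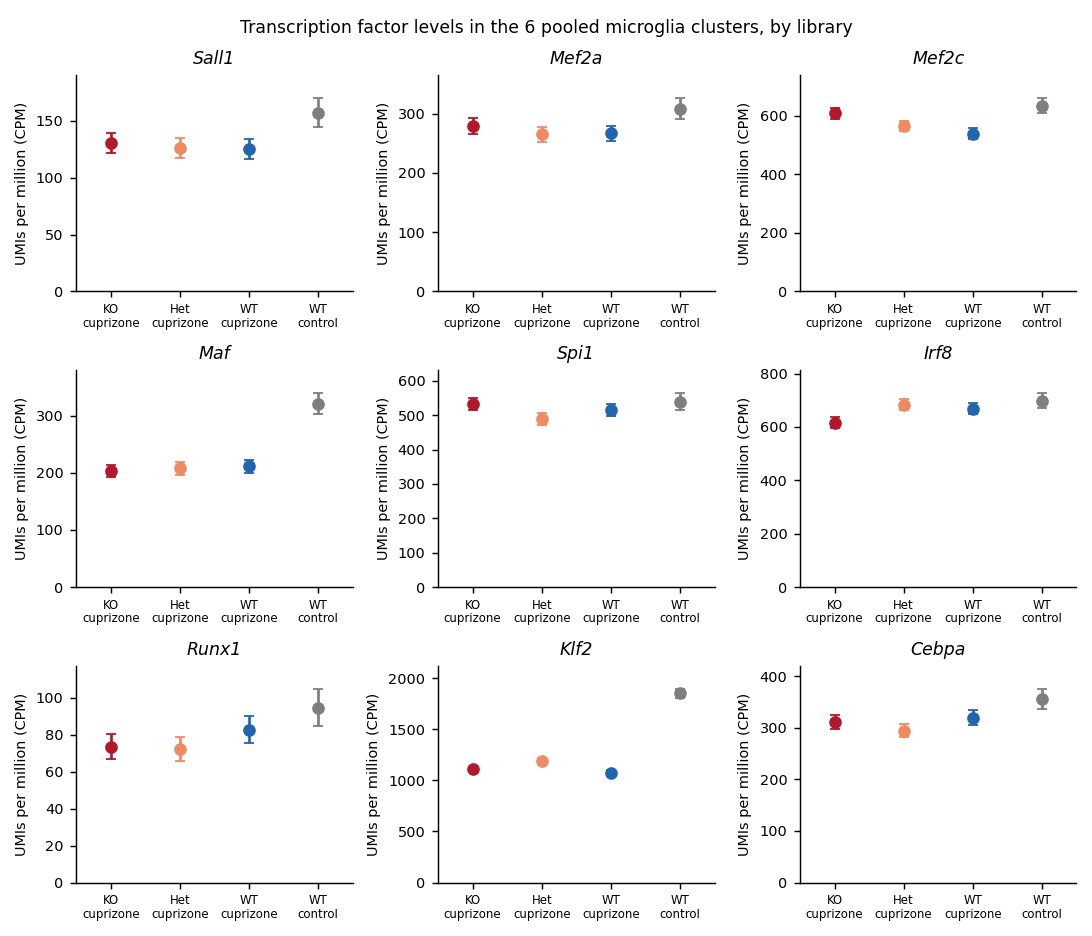
Level of each factor in CPM (vertical axis from 0) over the 6 microglia clusters in each library, with bars for 95% Poisson intervals. The gaps between WT control and the cuprizone libraries are widest for Klf2 and Maf. For Spi1, Irf8 and Runx1 the interval of the ratio of WT cuprizone to WT control held 1. Of all genes tested, 66.7% were lower in WT cuprizone than in WT control without TMM scaling.

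**Figure D5:**
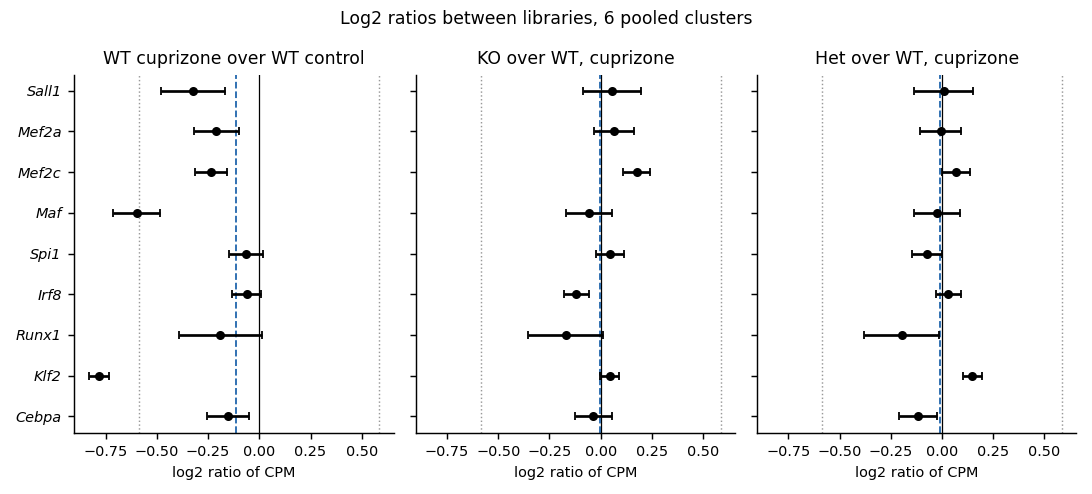
Log2 ratio of CPM with its 95% counting interval for each factor in WT cuprizone over WT control (left), KO cuprizone over WT cuprizone (middle) and Het cuprizone over WT cuprizone (right); dotted lines mark a 1.5-fold difference and the dashed line the median of all genes tested. Klf2 and Maf reach the left dotted line in the diet comparison, and no factor reaches either line in the genotype comparisons.

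The share of cells with a UMI followed the same pattern once depth was made equal. Cells were thinned to 2915 UMIs, and shallower cells were left out, which kept 673 of 753 cells in KO cuprizone, 644 of 695 in Het cuprizone, 604 of 663 in WT cuprizone and 410 of 479 in WT control. A Klf2 UMI was then found in 65.1%, 62.6%, 61.1% and 81.7% of these cells (exact binomial 95% interval 57.1 to 65.0 in WT cuprizone and 77.6 to 85.3 in WT control); unthinned, the shares were 72.9%, 74.4%, 70.9% and 86.2%. A Sall1 UMI was found in 27.8%, 26.1%, 25.8% and 33.2% of thinned cells, and the intervals of WT cuprizone (22.4 to 29.5) and WT control (28.6 to 38.0) overlapped. A Maf UMI was found in 41.9%, 41.3%, 37.7% and 55.9% of thinned cells, so WT control stood apart for Maf and Klf2. Unthinned, the shares of Sall1 were 51.5%, 50.9%, 49.2% and 50.5%. In cluster 03, which holds other cell types and so gives a comparison and no measure of free RNA, 1 of 50 thinned cells (2%, 0.0506 to 10.6) had a Sall1 UMI and 44% a Klf2 UMI, at a median of 7262.5 UMIs before thinning against 6967 in the microglia clusters. In the lowest quartile of cluster 07 a Sall1 UMI was found in 9.33% of 75 cells (3.84 to 18.3), so its interval overlapped that of cluster 03. Cluster 03 held endothelial markers at 1270 CPM and monocyte markers at 2636 CPM, and also P2ry12 at 478.0 CPM and Tmem119 at 379.5 CPM. The source of its Klf2 UMIs was not tested.

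Other transcription factors of macrophage lineage and tissue residence, a list of 37 genes of which 34 were tested, had 1 higher and 1 lower in WT cuprizone over WT control, at a median log2 ratio of -0.21. Over all genes tested 2.59% were higher and 4.44% lower, at a median of -0.11. Id2, an inhibitor of basic helix-loop-helix factors, was 1.79-fold higher (1.61 to 1.99). Ets1, an ETS factor best known from lymphocytes, was 1.51-fold lower (1.25 to 1.83). Cebpb, a C/EBP factor of inflammatory macrophages, was 1.16-fold higher (1.11 to 1.21). None of the 34 was past the limit in KO cuprizone or in Het cuprizone over WT cuprizone, where 5.51% and 2.49% of all genes were.

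Against cluster 07, Cebpb was 1.78-fold lower in the microglia clusters (1.72 to 1.83), with 801.5 CPM there and 1423 CPM in cluster 07, and Ets2 was 2.09-fold lower. Against the lowest quartile of cluster 07, 15 of the 34 were higher and 3 lower in the microglia clusters, at a median log2 ratio of 0.72. Over all genes tested 12.3% were higher and 6.67% lower, at a median of 0.29. Members on the higher side included Sall3, the relative of Sall1 (13.3, 3.66 to 109.5, on 2 UMIs in the lowest quartile), Zfhx3 (2.71, 1.98 to 3.81), Ikzf1 (2.44, 1.62 to 3.85) and Bhlhe41 (2.06, 1.53 to 2.84).

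Of 30 factors of activation and lipid sensing tested, 4 were higher and none lower in WT cuprizone over WT control, at a median log2 ratio of -0.12. This median was near that of all genes, -0.11. By the same limit 2.59% of all genes were higher and 4.44% lower. Among the 4 factors were Bhlhe40 at 5.30-fold (2.28 to 15.1), Irf7 at 1.89-fold (1.40 to 2.58) and Srebf2, which switches on sterol synthesis, at 1.77-fold (1.16 to 2.77). In KO cuprizone 3 of 30 were lower than in WT cuprizone and none higher, where 3.86% of all genes were lower and 1.64% higher. Bhlhe40 had 5 UMIs in KO cuprizone and 54 in WT cuprizone, a ratio of 0.0878 (0.0274 to 0.218). Srebf2 (0.474, 0.324 to 0.685) and Prdm1 (0.542, 0.383 to 0.760) were the other 2. None of 30 was past the limit in Het cuprizone, where 2.49% of all genes were. Against cluster 07, Bhlhe40 was higher in the microglia clusters and Irf4, Irf7 and Ahr were lower.

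Of 17 immediate early factors tested, Klf4 was lower and Maff higher (1.81, 1.17 to 2.88) in WT cuprizone over WT control. Their median log2 ratio was -0.28, against -0.11 for all genes. Junb, which had the most UMIs, had 5018 CPM in WT cuprizone and 4920 CPM in WT control. In KO cuprizone Fosl2 (0.629, 0.457 to 0.861) and Maff (0.639, 0.450 to 0.902) were lower than in WT cuprizone. Against cluster 07, 1 of 20 tested was higher in the microglia clusters and 6 were lower, where 2.43% and 4.57% of all genes were. Among the 6 were Klf4 (1.52-fold lower) and the nuclear receptors Nr4a1 (1.54-fold lower) and Nr4a2 (6.06-fold lower). Among 20 genes of homeostatic microglia, many of them targets of the identity factors, 1 was past the limit on the diet: the crystallin Crybb1 had 372.3 CPM in WT cuprizone and 629.1 CPM in WT control, 1.69-fold lower (1.59 to 1.79). All 20 ratios were below 1, at a median log2 ratio of -0.33, where 66.7% of all genes were below 1, at a median of -0.11. Past the limit in either direction were 7.03% of all genes. P2ry12 had 2227 CPM in WT cuprizone and 3130 CPM in WT control (0.712, 0.694 to 0.729), and the fractalkine receptor Cx3cr1 had 2300 and 2938 CPM. Crybb1 was also the 1 gene of this list past the limit in KO cuprizone, 1.51-fold higher than in WT cuprizone (1.43 to 1.59). Against the lowest quartile of cluster 07, 18 of the 20 were higher in the microglia clusters and none lower, where 12.3% and 6.67% of all genes were. The split had used some of the 20 genes.

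The genes whose level followed each factor most closely were found by Pearson's r of log2(CPM + 10) over 28 sums, 7 clusters in each of 4 libraries, among 3291 genes. The sums share libraries, clusters and depth, so r is a description. Klf2 was most like Klf4 (0.94), Egr2 (0.91) and Fos (0.90), all 3 genes of the immediate early list. Sall1 was most like Cx3cr1 (0.89), Marcks (0.88) and Tgfbr1 (0.87), the last a receptor for TGF-beta. Mef2a was most like Mertk (0.90), the phagocytic receptor kinase, Cebpa most like Btg1 (0.92), Spi1 most like Gsdmd (0.88) and Irf8 most like Glul (0.88). Mef2c had its highest r with Luc7l2 (0.92) and Runx1 with Hnrnph1 (0.86), both genes of RNA processing. The highest r of Maf was lower than for the others, 0.76 with Zeb2, followed by the scavenger receptor Stab1 (0.75).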

How the data were processed

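The authors deposited raw UMI counts, whole numbers, for every gene in every cell. The submitters' processing notes name Cell Ranger 2.1.1 and build mm10; cells of low quality had been removed, per the file headers. The counts were not normalized further. Each cell's library and cluster come from the authors' deposited file of cells. Gene annotation, thresholds of the cell filter and clustering settings: not given in the sources used here. The table holds 12800 genes, each with a UMI in at least 8 cells.

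UMIs were summed per library over 6 clusters and divided by the total (CPM). Intervals are exact Poisson (CPM), exact conditional binomial (ratios) and exact binomial (shares) at 95%, and cover counting error only. A gene was past the limit at a ratio of 1.5 with an interval excluding 1 and at least 50 UMIs. No doublet caller was run; cells above the 99th percentile of UMIs were left out in an alternative. Cells were thinned at the 10th percentile of UMIs, and at the 25th as an alternative. TMM factors came from edgeR 4.0.16. The interval script was tested on simulated data. Gene positions are from GENCODE for GRCm38.

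The 9 factors, the lists and the rules were chosen with earlier results of these data known. Named genes are the 9, genes of the factor lists past the limit (up to 6) or with the most UMIs (3), the genes of highest r, 4 homeostatic genes and markers. Crybb1 and the genes named against the lowest quartile of cluster 07 (Sall3, Zfhx3, Ikzf1, Bhlhe41) were chosen after their values were seen. Replicates within a group were absent: each group is 1 library of 2 pooled hemibrains. Some genes that the rule names are not reported here.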

Additional observations from a re-analysis of the deposited data

Results flagged for a closer look

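Klf2 in Het cuprizone over WT cuprizone lay on opposite sides of 1 in 2 populations of the same libraries. In cluster 07 it had 1475 CPM in Het cuprizone and 1747 CPM in WT cuprizone, a ratio of 0.844 (0.777 to 0.918). In the 6 microglia clusters together the ratio was 1.11 (1.07 to 1.15). Neither population was uniform. Of the single microglia clusters 4 were higher, 2 of them with intervals above 1, and 2 were lower, 1 of them with an interval below 1. Their ratios ran from 0.749 to 1.51. Across the quartiles of cluster 07, from the fewest to the most microglia markers, the ratio was 1.20, 0.613, 0.827 and 0.879. A ratio below 1 was thus not confined to cluster 07. Neutrophil markers summed to 2925 CPM in Het cuprizone and 40.3 CPM in WT cuprizone in cluster 07, and without 1 cell of Het cuprizone with over 1% neutrophil marker UMIs to 174.5 CPM in Het cuprizone. The ratio of Klf2 in cluster 07 without that cell was 0.856 (0.787 to 0.931). The difference between the ratios of cluster 07 and of the 6 microglia clusters together was not tested.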

How the results depend on the processing

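Klf2 on the diet was past the 1.5-fold limit under every alternative run except the 2-fold limit (log2 ratio -0.66 to -0.84, WT cuprizone over WT control). Of the 9 factors past the limit on the diet, 2 in the main analysis, 1 was left with TMM scaling, without cluster 08 and with equal weight for each cluster, and 0 at the 2-fold limit; Maf was the one lost. Over cluster 07 the count of 1 became 0 at the 2-fold limit and in the WT control library alone, and 2 in the WT cuprizone library alone and when per-cell CPM was averaged. Over the lowest quartile of cluster 07 the count of 6 became 3 in the WT control library alone, where Klf2 reversed to a log2 ratio of 0.094. Among the factor lists on the diet, lineage factors gave 1 with TMM scaling, with all deposited cells and when per-cell CPM was averaged; at the 2-fold limit they gave 0, activation factors 1, immediate early factors 0 and homeostatic genes 0. In KO cuprizone, immediate early factors gave 0 and homeostatic genes 0 at the 2-fold limit, immediate early factors 1 with all deposited cells, and lineage factors 1, immediate early factors 1 and homeostatic genes 0 with averaged per-cell CPM. In Het cuprizone, lineage factors gave 1 with no minimum, and activation factors 2 and immediate early factors 1 with averaged per-cell CPM. Over cluster 07, activation factors gave 7 with no minimum, lineage factors 1 and immediate early factors 4 at the 2-fold limit, and lineage factors 6 and homeostatic genes 14 with averaged per-cell CPM. The cause was not tested in any of these.

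Over all genes on the diet, 228 higher and 392 lower became 123 and 52 at the 2-fold limit, 386 and 625 with averaged per-cell CPM, and 522 and 644 with equal cluster weight. In KO cuprizone 151 and 355 became 36 and 113, 328 and 536, and 398 and 528 in the same order. In Het cuprizone 122 and 108 became 42 and 21, 345 and 281, and 367 and 276, with 232 and 167 at no minimum and 162 and 193 with all deposited cells. Over cluster 07, 252 and 473 became 103 and 268 at the 2-fold limit and 1155 and 853 with averaged per-cell CPM. No paired analysis was possible because each group is 1 library, with no replicate number shared between groups. Leaving out cells with over 1% neutrophil marker UMIs, chosen after seeing the data, left every one of the 9 factors on its side of the limit in the 3 library comparisons. Of the single-factor values, 374 kept their call (or, if not past the limit, stayed within the counting interval), 45 moved out of that interval, 15 fell inside the limit, 6 passed it and 1 reversed. Runx1 and Sall1 are limited most by depth, with 2144 and 3453 UMIs in all cells.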
